A study of Mus musculus with 6 samples.

Results

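Expression of 9 genes that encode RNA-binding proteins acting on cytokine mRNA was followed in mouse B cells with and without TLR9 stimulation. The 9 genes were chosen by name from 23420 genes in the tables. They are the CCCH zinc-finger genes Zfp36, Zfp36l1 and Zfp36l2, the endoribonuclease genes Zc3h12a, Zc3h12c and Zc3h12d, the Roquin genes Rc3h1 and Rc3h2, and Elavl1. The samples were B cells purified with beads from the spleens of WT BALB/c mice aged 7 to 11 weeks, with no allele or agent other than CpG separating the groups. In the CpG-stimulated group (n = 3), 10 M cells at 10 M/ml were held for 4 hours with the TLR9 ligand CpG ODN 1826 at 10 µg/ml, and in the unstimulated group (n = 3) the ligand was left out. Cells came from 3 mice. Replicates 1 and 2 of each group were from females and replicate 3 was from a male.

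Many cytokine, chemokine and growth-control mRNAs carry AU-rich elements or stem-loops in their 3′ UTR, and proteins bound there set how long the mRNA lasts. Proteins of the Zfp36 family bind UAUUUAU-type elements and recruit the CCR4-NOT deadenylase. The Zc3h12 (Regnase) proteins cut mRNA at stem-loops, the Roquins bind stem-loops and recruit deadenylation and decapping factors, and the Elavl1 protein (HuR) binds AU- and U-rich elements and mostly stabilises the mRNA. In B cells and other immune cells the destabilising proteins among them restrain the output of induced transcripts, and several of the set are themselves controlled by phosphorylation, by proteolysis and by elements in their own mRNA.

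Of those elements, an AU-rich one was searched for in the 3′ UTRs of the 9 genes (GENCODE M21, GRCm38). Stem-loops were not searched for. The heptamer TATTTAT, searched on the transcript strand with overlapping matches counted, occurred 3 times in each of Zfp36, Zfp36l1 and Zfp36l2, whose 3′ UTRs were 774, 1835 and 1822 bases long. It occurred 8 times in the 4218 bases of Elavl1, 3 times in Rc3h2 (5160 bases), 2 times in Zc3h12c (3421 bases) and 2 times in Rc3h1 (7181 bases). Zc3h12a (856 bases) and Zc3h12d (2327 bases) held 0. Of 10070 tested genes with an annotated 3′ UTR, 27.6% held at least 1 heptamer, 3.3% at least 3 and 0.0993% at least 8. Among UTRs between 0.5 and 2 times as long, at least as many heptamers were found in 1.22% for Zfp36, 3.91% for Zfp36l1, 3.83% for Zfp36l2, 11.4% for Rc3h2, 20.1% for Zc3h12c, 34.3% for Rc3h1 and 0.172% for Elavl1. The 30-base stretch with the most heptamers, or the first along the 3′ UTR in a tie, is shown for the Zfp36 family and Elavl1. These genes were picked because the transcripts of these binding proteins carry the element that the proteins themselves bind. Capitals mark the heptamer, and all 4 stretches are on the minus strand, at chr7:28376958-28376987 for Zfp36, chr12:80108421-80108450 for Zfp36l1, chr17:84184913-84184942 for Zfp36l2 and chr8:4285776-4285805 for Elavl1.
Zfp36: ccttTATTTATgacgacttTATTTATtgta
Zfp36l1: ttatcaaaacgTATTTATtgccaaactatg
Zfp36l2: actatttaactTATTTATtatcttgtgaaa
Elavl1: TATTTATTTATTTATTTATtttTATTTATt
The Elavl1 stretch held 5 overlapping or neighbouring heptamers, the Zfp36 stretch held 2 and the others 1 each. A match describes these letters and does not show that a protein binds there.

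Expression is given as log2 CPM, the log2 of reads per 1 M reads, and a change as log2FC, the CpG-stimulated mean minus the unstimulated mean. A gene was called raised or lowered at a false discovery rate (FDR) under 0.05 in limma over 11233 genes, those reaching the value of 10 reads in 3 or more samples. Values corresponded to a common library of 17.8 M reads, in which 10 reads were worth -0.76 log2 CPM. By the mean over the 6 samples, 8 of 8 B cell markers lay above 10 reads' worth. By the same mean 0 of 6 T cell and 0 of 4 NK cell markers did, and all of these means were under 3 reads' worth. Of the other markers, 4 of 8 myeloid, 3 of 4 plasmacytoid dendritic cell and 4 of 5 erythroid genes passed that level, with S100a8, Mpo and Siglech under 3 reads' worth. Summed B cell markers came to 2948 to 3366 CPM with CpG and 3950 to 4575 CPM without. Summed myeloid markers came to 10.4 to 16.1 and 7.68 to 15.1 CPM, and summed plasmacytoid dendritic cell markers to 50 to 56.1 and 52.3 to 57.6 CPM. Summed NK markers came to 0.715 to 1.4 CPM with CpG and 0.206 to 0.312 CPM without, and summed T cell markers to 0.5 to 0.632 and 0.407 to 0.604 CPM. Replicate 2 of both groups stood apart in erythroid markers, at 4913 CPM with CpG and 3846 CPM without, against 384 to 612 CPM in the other 4 samples. In replicate 2 the summed B cell markers came to 3343 CPM with CpG and 3950 CPM without, so erythroid RNA was not minor there. The part of these differences in the results was not tested, and in bulk RNA fewer cells of a type and less RNA per cell cannot be told apart.

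All 9 genes passed the filter, with values from 4.79 to 11.15 log2 CPM in every sample. CpG raised 3 of them (Zc3h12c, Zc3h12a and Elavl1) and lowered 5 (Zfp36l2, Zfp36, Rc3h2, Rc3h1 and Zc3h12d), and Zfp36l1 did not pass the test. Over all tested genes 37.6% were raised and 36.7% lowered, so 8 calls among 9 genes are to be read against a response in which 25.7% of genes did not pass. With a log2FC beyond 1 in size as well, 2 were raised (Zc3h12c and Zc3h12a) and 1 was lowered (Zfp36l2), against 15.8% and 15.3% of all tested genes. The 3 CpG samples lay wholly above the 3 unstimulated samples in 3 genes (39.1% of all tested genes) and wholly below in 5 (38.6%). The median size of the log2FC was 0.67 over the 9 genes and 0.64 over all tested genes, and the median log2FC was -0.25 and 0.00. The p-values measure the spread between these samples, in a fit that did not pair samples of the same replicate number. Such pairing changed no call among the 9. For a single gene an exact permutation of 3 against 3 samples cannot go below 0.1, or below 0.25 within 3 pairs.

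**Figure D1:**
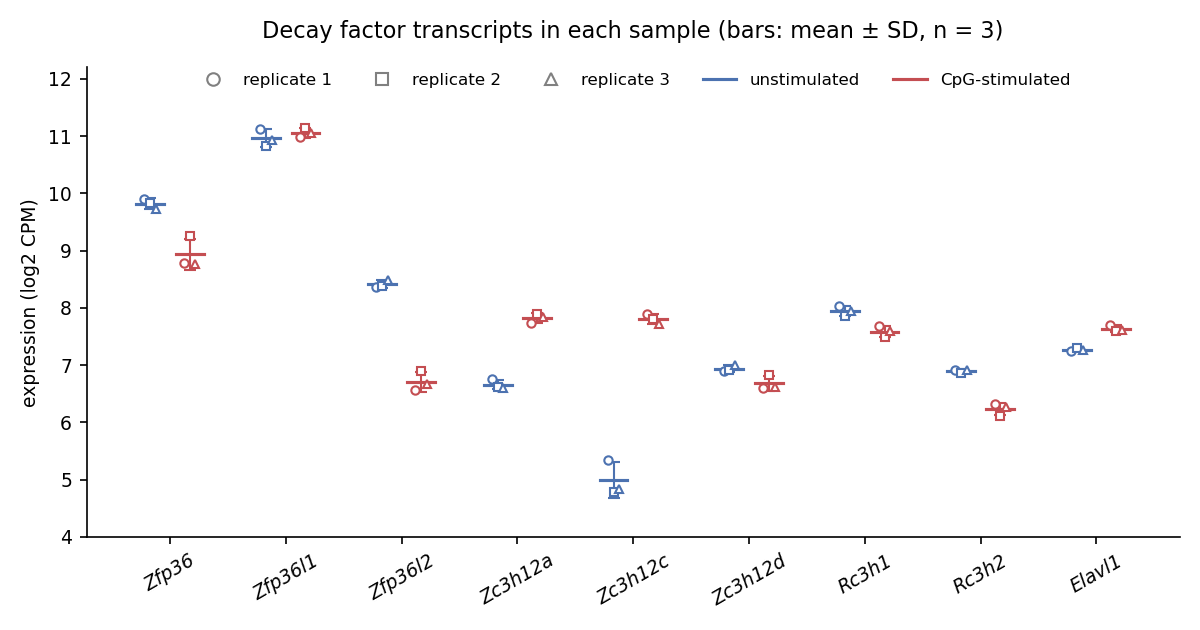
Expression of the 9 genes in each sample, in log2 CPM on the vertical axis, for unstimulated (blue) and CpG-stimulated (red) B cells, with single samples as open symbols, means as long bars and SD as whiskers (n = 3). Zc3h12c moved from 4.99 to 7.80, whereas the symbols of Zfp36l1 overlap.

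Among the Zc3h12 endoribonucleases, Zc3h12c (Regnase-3) changed the most of the 9 genes. The gene lies on the minus strand at chr9:52111344-52168572 (GRCm38). Its values were 7.89, 7.80 and 7.71 log2 CPM with CpG and 5.35, 4.79 and 4.83 without. Every CpG sample lay at least 2.36 above the highest unstimulated sample, which was replicate 1. Zc3h12c rose 7.01-fold (log2FC 2.81 ± 0.13 SE, FDR 6.50e-08) and ranked 132 from the top of the 11233 tested genes. Zc3h12a, which encodes Regnase-1, the best studied of these nucleases and known to cleave Il6 mRNA, read 7.73, 7.90 and 7.84 with CpG and 6.75, 6.62 and 6.60 without. The groups were apart by 0.98, more than any gap between replicates, and the rise was 2.25-fold (log2FC 1.17 ± 0.07 SE, FDR 2.39e-07). Zc3h12d (Regnase-4) moved the other way, with 6.60, 6.83 and 6.62 under CpG and 6.89, 6.91 and 7.01 without. Its groups were only 0.06 apart, because CpG replicate 2 came close to the unstimulated samples. The log2FC was -0.25 ± 0.08 SE (FDR 0.0117), and the call was lost without CpG replicate 3 (FDR 0.0515) and without unstimulated replicate 3 (FDR 0.0506), at a log2FC of -0.22 in both.

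In the Zfp36 family, Zfp36l2 showed the strongest decrease of the 9 genes. It lies on the minus strand at chr17:84183931-84187947 (GRCm38). It read 6.56, 6.89 and 6.67 log2 CPM with CpG and 8.37, 8.39 and 8.49 without. The unstimulated samples lay close together and 1.48 above the highest CpG sample. Zfp36l2 fell by 1.71 on the log2 scale (SE 0.09, FDR 8.26e-08), which is 3.27-fold lower. Zfp36, which encodes tristetraprolin, the classical destabiliser of Tnf mRNA, read 8.78, 9.25 and 8.77 with CpG and 9.90, 9.84 and 9.72 without. All 3 CpG samples were below the unstimulated ones, and CpG replicate 2, the CpG sample with the most erythroid marker RNA, was the nearest to them. Zfp36 fell by 0.89 on the log2 scale (SE 0.12, FDR 7.25e-05), or 1.85-fold, and by 1.05 without CpG replicate 2, which brings the genes lowered by more than 1 from 1 to 2. Zfp36l1 read 10.98, 11.15 and 11.05 with CpG and 11.13, 10.82 and 10.94 without. The groups overlapped, and the log2FC of 0.10 had a 95% interval from -0.10 to 0.30 (FDR 0.339), so a change beyond 0.30 in size lay outside the interval.

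Both Roquin genes were lowered. Rc3h1 (Roquin-1) read 7.68, 7.49 and 7.59 log2 CPM with CpG and 8.03, 7.86 and 7.95 without. Rc3h2 (Roquin-2) read 6.32, 6.11 and 6.26 with CpG and 6.92, 6.87 and 6.91 without. In both genes the CpG samples were all lower, by at least 0.18 for Rc3h1 and 0.55 for Rc3h2, and replicate 2 was the lowest sample of each group. The log2FC was -0.36 ± 0.07 SE (FDR 9.55e-04) for Rc3h1 and -0.67 ± 0.07 SE (FDR 1.11e-05) for Rc3h2.

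Elavl1, the stabilising factor of the set, was raised. Its values were 7.70, 7.59 and 7.61 log2 CPM with CpG and 7.24, 7.29 and 7.27 without. The CpG samples were all higher, by at least 0.31, and the unstimulated samples spread by an SD of only 0.02. The log2FC was 0.37 ± 0.06 SE (FDR 2.27e-04), or 1.29-fold. Exons of Elavl1 overlap those of the chemokine gene Ccl25 on the opposite strand. Ccl25 stood at 0.32 to 0.58 log2 CPM with CpG and -1.43 to -1.23 without (log2FC 1.75), far fewer reads than Elavl1 in every sample. Zfp36, Zfp36l1, Zfp36l2 and Zc3h12c also share exon bases with annotated genes on the opposite strand, and whether reads were counted by strand is not given in the sources used here, so reads from both strands cannot be told apart there.

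**Figure D2:**
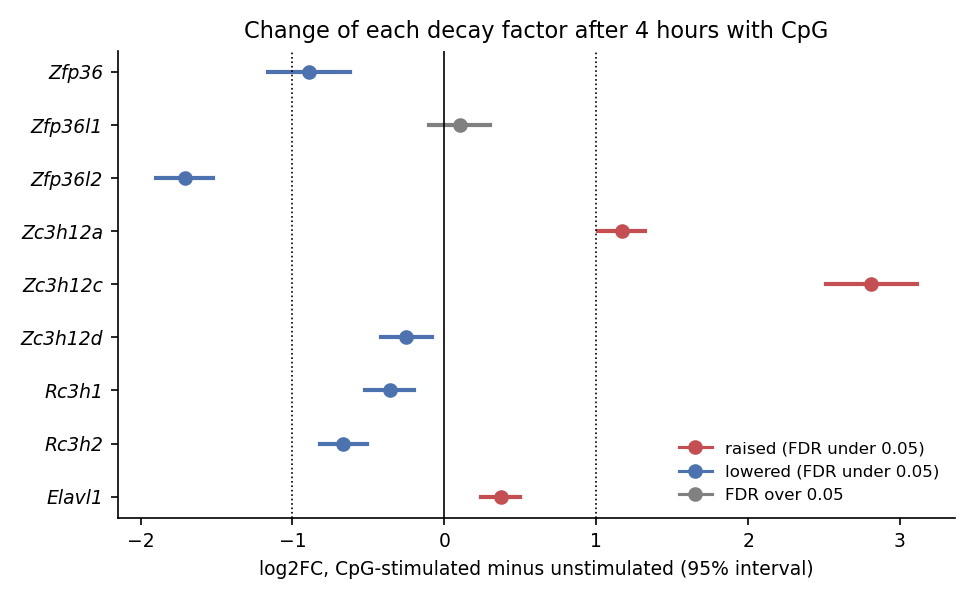
Log2FC of each gene, CpG-stimulated minus unstimulated, with its 95% interval as a line (red raised, blue lowered, grey FDR over 0.05) and dotted lines at 1 and -1. Zc3h12c (2.81) and Zc3h12a (1.17) lie beyond 1, Zfp36l2 (-1.71) beyond -1, and the interval of Zfp36l1 (-0.10 to 0.30) spans 0.

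Levels of different genes were compared per kb of annotated exon, counting every exon of a gene once. In unstimulated cells Zfp36l1 was the most abundant of the 9 at 667 CPM per kb, followed by Zfp36 (261) and Zfp36l2 (96.9). Zc3h12a (35.0), Zc3h12d (29.9), Rc3h1 (21.8), Elavl1 (14.8) and Rc3h2 (6.09) came next, and Zc3h12c was last at 4.64 CPM per kb. No 2 neighbours in this order overlapped in their ranges over 3 samples. With CpG the order began again with Zfp36l1 (715), Zfp36 (141) and then Zc3h12a (78.6 CPM per kb). Zc3h12c had moved to the fourth place at 32.5 CPM per kb, and Zfp36l2 had moved to the fifth at 29.7. The ranges of Zc3h12c and Zfp36l2 overlapped, as did those of Zfp36l2 and Zc3h12d (25.1). Elavl1 (19.2), Rc3h1 (17.0) and Rc3h2 (3.83) closed the order and were apart from their neighbours. A union of exons can be longer than the transcript a B cell makes, as for Rc3h2 with 19.62 kb, and its level per kb is then too low.

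The make-up of each family shifted. Of the summed Zfp36 family level per kb, Zfp36l1 made up 65.1% ± 2.14 (SD, n = 3) without CpG and 80.7% ± 1.91 with it. The share of Zfp36 was 25.5% ± 1.72 and 16.0% ± 1.82, and that of Zfp36l2 was 9.48% ± 0.95 and 3.35% ± 0.124. The shares of all 3 genes were apart between the groups, whereas the sum itself overlapped, at 964 to 1117 CPM per kb without CpG and 830 to 971 with it. In the Zc3h12 family Zc3h12d held 43.0% ± 2.72 of the sum without CpG, close behind Zc3h12a with 50.2% ± 1.56, and Zc3h12c held 6.74% ± 1.31. With CpG these shares were 18.4% ± 0.833, 57.7% ± 1.74 and 23.9% ± 2.03, so Zc3h12c passed Zc3h12d in each of the 3 samples. The Zc3h12 sum was 69.7 ± 2.40 CPM per kb without CpG and 136 ± 6.07 with it, with no overlap. The Roquin sum was 27.9 ± 1.36 and 20.8 ± 1.38 CPM per kb, also with no overlap, and Rc3h1 made up 78.1% ± 0.684 and 81.6% ± 0.292 of it.

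**Figure D3:**
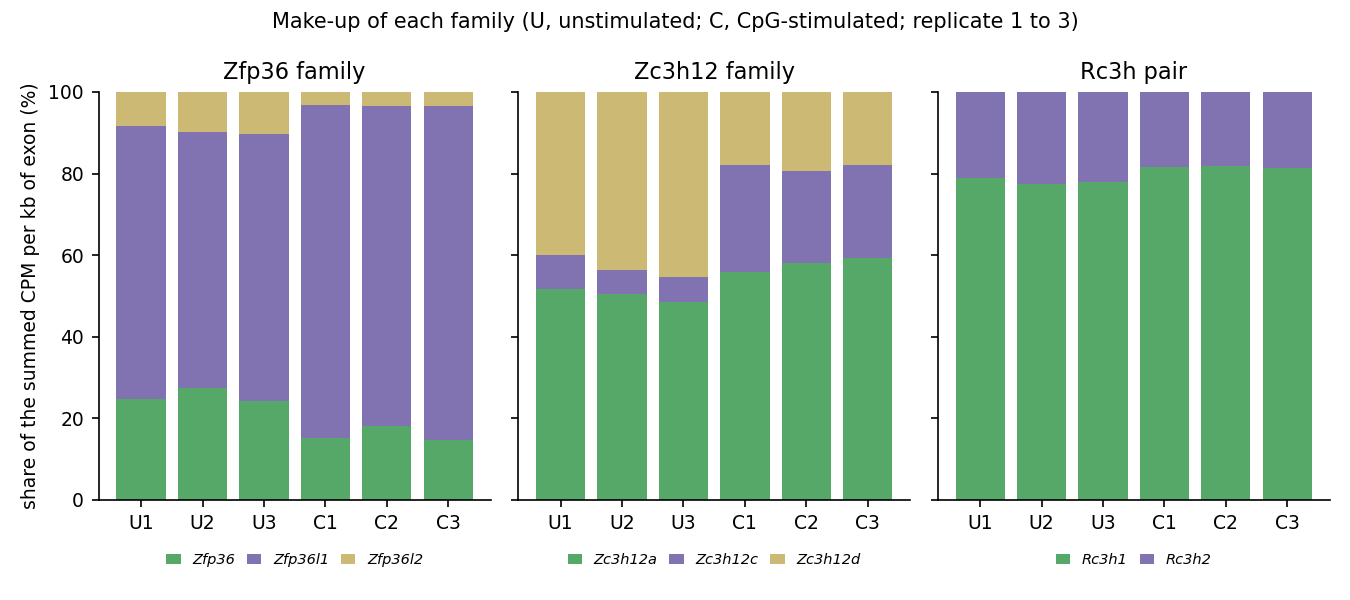
Share of each gene in the summed level of its family, in percent of CPM per kb of exon, for each unstimulated (U) and CpG-stimulated (C) replicate. Zc3h12c grew from 6.74% to 23.9% of the Zc3h12 family on average, and Zfp36l2 shrank from 9.48% to 3.35% of the Zfp36 family.

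Whether paralogues moved apart was tested on their log2 ratio in each sample, in which length cancels between the groups. The ratio of Zc3h12c to Zc3h12d changed by 3.06, from -2.18 to -1.54 in unstimulated samples to 0.97 to 1.29 with CpG. That of Zfp36l1 to Zfp36l2 changed by 1.81, from 2.43 to 2.75 without CpG to 4.26 to 4.42 with it. The ratio of Zc3h12a to Zc3h12d changed by 1.42 and that of Zc3h12a to Zc3h12c by -1.64. The smaller changes were -0.99 for Zfp36 to Zfp36l1, 0.82 for Zfp36 to Zfp36l2 and 0.31 for Rc3h1 to Rc3h2. In all 7 ratios the groups did not overlap. For single tested genes the groups were apart in 39.1% (CpG higher) and 38.6% (CpG lower). The share over gene pairs was not computed, and ratios within a family share genes, so the 7 are not independent. Each ratio gave an exact two-sided permutation p of 0.1, before and after Benjamini-Hochberg adjustment over the 7. That is the smallest that 3 against 3 unpaired samples allow. In an alternative chosen after seeing the data, with samples exchanged only within the 3 replicate pairs, each ratio gave an exact p of 0.25, the smallest that 3 pairs allow, and the 3 pairs changed in the same direction in every ratio.

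The promoters, from 250 bases before to 50 bases after the start (RefSeq, GRCm38.p6), were searched on both strands for a kB motif (GGGA, 4 bases of any kind, then CC) and an AP-1 motif (TGANTCA), sites of the transcription factor families that act downstream of TLR9. A promoter was found for 8 of the 9 genes, all but Zfp36l2, and a pair of them for Zc3h12c. The kB motif occurred in 26.1% of 11374 promoters of tested genes and in those of Zfp36, Zc3h12c and Rc3h2, for Zc3h12c in the upstream promoter only, the other holding neither motif. AP-1 occurred in 4.77% of the promoters and in those of Zfp36l1 and Rc3h1. The 30 bases around each motif are shown because the 3 genes sharing the kB motif did not change in a common direction. Capitals mark the motif on either strand, which in Zc3h12c is a pair of overlapping matches. The stretches lie at chr7:28379309-28379338 (minus strand) for Zfp36, chr9:52168623-52168652 (minus) for Zc3h12c, chr2:37422895-37422924 (minus) for Rc3h2, chr12:80113124-80113153 (minus) for Zfp36l1 and chr1:160906267-160906296 (plus) for Rc3h1.
Zfp36: acgccgcgggGGCGCGTCCCggaagctcta
Zc3h12c: gcggcatggGGGAGCGTCCCgctcggcccg
Rc3h2: gccgccaacgGGGCTGTCCCtgtagctccc
Zfp36l1: gaccgcatggcTGATTCAacctcagtgtca
Rc3h1: gttggggccggTGACTCAgagctttcctcc
Of the 3 genes with a kB motif, Zc3h12c was raised while Zfp36 and Rc3h2 were lowered. Zc3h12a, raised as well, held neither motif in this window. The windows give no measure of binding.

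The genes whose 6 values ran closest to those of Zc3h12c, each gene taken relative to its own mean, were Dhrs3 (Euclidean distance 0.16), Hk2 (0.32), Akap1 (0.32), Plxna1 (0.35) and the gene model Gm6981 (0.35). Their log2FC lay between 2.65, for Gm6981, and 3.03. Gm6981 averaged only -1.26 log2 CPM over the 6 samples, under 10 reads' worth (SE of its log2FC 0.45). Its place here is therefore given as a description. Hk2 encodes hexokinase 2, which traps glucose in the cell, and Akap1 anchors protein kinase A at mitochondria. Among the genes closest to Zfp36l2 were Cyth1 (0.08), Macf1 (0.10), Lgals8 (0.10) and Foxo4 (0.11), with log2FC from -1.73 to -1.65. This distance counts the size of the change as well as its shape.

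Other genes related to the 9 were mostly low or little changed. Of 7 such genes, Zfp36l3, Elavl2, Elavl3 and Elavl4 did not reach the filter. N4bp1, an endonuclease with a Regnase-like domain, was lowered (log2FC -0.32, FDR 0.00151), and the log2FC of its relative Khnyn was -0.08 (FDR 0.273). Zc3h12b stood at -1.90 to -1.07 log2 CPM without CpG, under 10 reads' worth in all 3 samples, and at -0.10 to 0.65 with it. It was tested only through its CpG samples, so its log2FC of 1.69 is given as a description. A list made for other AU-rich element binding proteins was not confined to proteins that bind only this element. Of its 12 tested genes, 7 were raised, 2 lowered and 3 did not pass. The median log2FC was 0.50, against 0.00, with 37.6% raised and 36.7% lowered, over all tested genes. Igf2bp3 (1.69), Hnrnpab (1.17) and Syncrip (1.13) rose the most, while Tia1, a translational silencer of Tnf mRNA, fell by 0.50 on the log2 scale. Arid5a, whose protein protects Il6 mRNA from Regnase-1, had a log2FC of -0.23 (FDR 0.0116), and without unstimulated replicate 2 it was -0.18 (FDR 0.0608).

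The machinery that the factors recruit did not move as one. Its lists are to be read against the 36.7% of all tested genes that were lowered and the 37.6% that were raised. Of 18 tested deadenylation genes 12 were lowered (66.7%) and 4 raised (22.2%), with a median log2FC of -0.34. Btg2 and Tob2, adaptors that bring the CCR4-NOT deadenylase to mRNA, fell by 2.13 and 1.45 on the log2 scale, and Cnot6l, a catalytic subunit, fell by 1.27. Rqcd1 (Cnot9), a subunit that contacts RNA-binding proteins, rose by 0.56 and Cnot11 by 0.28. Cnot10 rose by 0.30, but by 0.23 without CpG replicate 3 (FDR 0.053). Btg2 read 6.63, 6.96 and 6.68 log2 CPM with CpG and 8.84, 8.92 and 8.90 without, a pattern with no overlap. Of 17 genes for decapping and 5′ decay, 6 were raised (35.3%), 4 lowered (23.5%) and 7 did not pass (median log2FC 0.03), a raised share near that of all genes. Within this list the Lsm ring genes Lsm7 (1.53), Lsm2 (1.22) and Lsm1 (1.01) rose, whereas the helicase gene Ddx6 (-0.52) and Lsm14a (-0.21) were lowered, the latter at -0.17 without unstimulated replicate 3 (FDR 0.0589). Xrn1, the gene of the main 5′ exonuclease, was lowered from 5.71 ± 0.07 to 4.71 ± 0.12 log2 CPM (SD, n = 3). Exosome and 3′ decay genes were raised in 14 of 17 cases (82.4%) and lowered in 1, Skiv2l (-0.28, and -0.24 with FDR 0.0517 without unstimulated replicate 3), with a median log2FC of 0.98. The catalytic subunit gene Dis3 rose from 5.96 ± 0.09 to 7.47 ± 0.12 log2 CPM (SD, n = 3; log2FC 1.51), the Ski complex gene Wdr61 from 5.24 ± 0.06 to 6.74 ± 0.03, and the core subunit gene Exosc7 rose by 1.42. Nonsense-mediated decay genes were lowered in 5 of 10 cases and raised in 2 (median log2FC -0.18), against 36.7% and 37.6% of all tested genes, with Smg1 (-1.10), Upf3b (-0.95) and Upf2 (-0.51) the lowest. The raised genes were Smg8 (0.54) and Upf1 (0.19, FDR 0.037), and the call for Upf1 was lost in 6 of 12 alternatives.

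Enzymes that modify or cleave the decay factors were lowered in 9 of 17 cases (52.9%) and raised in 5 (29.4%), against 36.7% and 37.6% of all tested genes (median log2FC -0.23). Malt1, the paracaspase that cleaves Regnase-1 and the Roquins, read 6.76, 7.15 and 6.72 log2 CPM with CpG and 8.43, 8.63 and 8.47 without. It fell by 1.63 on the log2 scale (FDR 5.02e-07), with no overlap. Mapk14 and Mapk11, the genes of p38 kinases in the pathway that inactivates tristetraprolin, fell by 1.59 and 1.92. Mapkapk2, singled out after its value was seen, which encodes the kinase that phosphorylates tristetraprolin directly, had a log2FC of 0.09 (FDR 0.185). Ikbke, an IKK-related kinase gene, rose by 3.29, the deubiquitinase gene Usp10 by 0.89 and the phosphatase subunit gene Ppp2cb by 0.37.

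Of 32 transcripts known as targets of the 9 proteins, 18 held 10 reads' worth in every sample. Of these, 15 were raised, 2 were lowered and 1, Ccnd1, did not pass (median log2FC 1.37), against 37.6% raised and 36.7% lowered over all tested genes. A further 9 were tested with at least 1 sample under that level, 4 of them with all 3 unstimulated samples under it. All 9 were called raised, and they are left out of the count because a gene that enters through its CpG samples could hardly be called otherwise. The remaining 5 were not tested. This list was drawn from general knowledge of induced immune transcripts and was not chosen independently of what is known of CpG responses. Nfkbiz, a nuclear IκB protein gene targeted by Regnase-1, rose by 3.52, the IL-2 receptor gene Il2ra by 3.47 and the chemokine gene Ccl3 by 3.45. Nfkbiz read 11.66, 11.42 and 11.60 log2 CPM with CpG and 8.18, 7.98 and 7.96 without. The lowered targets were Fos (-1.99) and Rel (-1.21), genes of AP-1 and NF-κB subunits. Tnf and Il6, singled out after their values were seen because they are the textbook targets of tristetraprolin and Regnase-1, rose by 3.03 and 5.30. Tnf read 6.89, 7.12 and 6.58 with CpG and 4.07, 4.05 and 3.38 without. Il6 read 3.69, 5.23 and 4.15 with CpG and -2.56, 0.12 and -0.40 without, so unstimulated replicate 1 lay under 3 reads' worth. Its rise was 4.50 without that sample and 3.73 with log2(CPM + 1) over all samples. Steady-state RNA levels do not separate synthesis from decay.

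**Figure D4:**
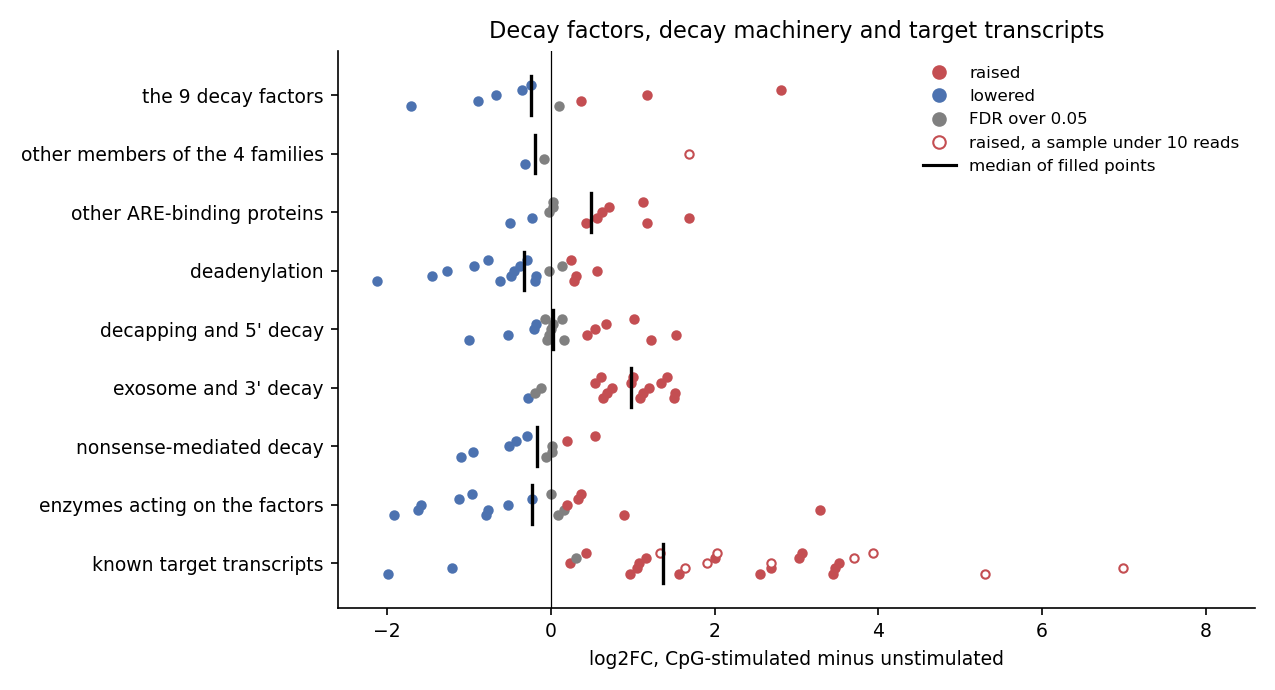
Log2FC, CpG-stimulated minus unstimulated, of the 9 decay factor genes and of the tested genes of 8 lists, with a point for each gene (red raised, blue lowered, grey FDR over 0.05, open with a sample under 10 reads' worth) and black bars at the medians of the filled points. The exosome genes (median 0.98) and known targets (1.37) lie mostly to the right of 0, and the deadenylation genes (-0.34) mostly to the left.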

How the data were processed

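RNA-seq values of 6 samples were used, 3 per group, grouped by the sample titles. The authors trimmed and aligned reads to mm10, counted them per gene, and applied quantile normalization and voom, so the deposited values are log2 CPM and not counts. The submitters' processing notes name FastQC 0.11.7, Trim Galore 0.6.5, STAR 2.6.1a, featureCounts of Subread 2.0.1 and limma. The most common low value, -5.152, was taken as the level of a gene without reads (0.5 reads in the voom formula); it gives a library of 17.8 M reads. Of all values 5.72% lay more than 0.01 below it, so read equivalents are approximate, and the true depth per sample is not given in the sources used here. Some genes near that level differed between replicate numbers but not between groups. Elavl2 read -5.40, -5.03 and -5.03 for replicates 1 to 3 in both groups. Whether a further step by replicate number followed voom was not tested. The SE and FDR values of the unpaired fit make no allowance for such a step.

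Groups were compared with limma 3.58.1 (R 4.3.3; eBayes with a variance trend) on the deposited values, with Benjamini-Hochberg adjustment over 11233 genes. The script was tested on simulated data. Named genes were the 9 genes, the 7 related genes, from each list the 3 most raised and 3 most lowered called genes whose mean was 2 log2 CPM or higher, and the 5 genes nearest to the most raised and the most lowered of the 9, of which 1 is not reported here. The genes and lists were chosen with earlier results of these data known. Same-numbered samples of the groups deviated together (r = 0.435, 0.224 and 0.3 for replicates 1 to 3, against -0.281 to 0.0279 for different numbers). Replicate numbers were taken to pair the samples. A shift shared by same-numbered samples, as in Elavl2, would also raise r, so r alone cannot decide whether they are pairs. Alternatives were 2 other filters, log2(CPM + 1), no variance trend, median centring, a replicate block and leaving out each sample. Protein sequences were not used here.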

Additional observations from a re-analysis of the deposited data

How the results depend on the processing

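Over 12 alternatives no result for the 9 genes changed direction, and 106 log2FC values kept their side of the threshold while 2 did not. Those were both of Zc3h12d, at a log2FC of -0.22 without CpG replicate 3 (FDR 0.0515) and without unstimulated replicate 3 (FDR 0.0506); leaving out 1 sample gave -0.33 to -0.21. The number of the 9 genes lowered by more than 1 ranged from 1 to 2 when 1 sample was left out, and was 2 without CpG replicate 2. The log2FC ranged from 2.71 to 2.99 for Zc3h12c, from -1.80 to -1.63 for Zfp36l2 and from 0.03 to 0.18 for Zfp36l1. With the replicate block that pairs samples of 1 number, 3 of the 9 genes were raised and 5 lowered, and the block changed no call among the 9. List counts moved by over 1.5 times as follows. Raised known targets went from 24 of 27 tested to 15 of 18 when 10 reads' worth was required in every sample, since fewer genes were tested. Raised related genes went from 1 to 0 with that filter or without any 1 CpG sample, since Zc3h12b was then not tested, and to 3 with no filter. Raised nonsense-mediated decay genes went from 2 to 1 with no filter, with no variance trend and without CpG replicate 1 or 3 or unstimulated replicate 1 or 2. Lowered genes went from 2 to 1 for AU-rich element binding proteins without unstimulated replicate 2, and from 4 to 2 for decapping and from 1 to 0 for the exosome without unstimulated replicate 3. Of the other named genes, Arid5a, Cnot10, Lsm14a and Skiv2l each lost the call in 1 alternative and Upf1 in 6, with log2FC of -0.28 to -0.18, 0.23 to 0.38, -0.24 to -0.17, -0.35 to -0.24 and 0.12 to 0.24 in this order over the 12. The causes of the other moves were not tested.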

Other observations

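Transcripts grouped by the number of TATTTAT heptamers in their 3′ UTR were compared, as a description with no test, in how often they changed by more than 1 on the log2 scale. Among 7289 tested genes with 0 heptamers 15.5% were raised and 15.1% lowered, among 2449 genes with 1 or 2 heptamers 14.4% and 16.2%, and among 332 genes with 3 or more 13.9% and 18.1%. The median log2FC was 0.02, -0.04 and -0.19 in this order. The median 3′ UTR length grew along the same order, from 700 to 1866 and 3202 bases, and its part in these values was not tested. Zfp36, Zfp36l1, Zfp36l2, Rc3h2 and Elavl1 belong to the group with 3 or more.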
